A study of Mus musculus with 8 samples.

Results

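Cortistatin, the neuropeptides of cortical interneurons and some of their receptors were followed in PrL tissue after nerve injury. The 10 genes were taken by symbol, as 7 peptide precursors (Cort, Sst, Npy, Vip, Cck, Tac1 and Tac2) and 3 receptors (Sstr1, Sstr2 and Npy1r). All 10 were among the 14765 genes of the deposited count table, and all 10 passed the filter on low counts that left 13911 genes. Cort was chosen by its measured fall in SNI, and the other genes were selected with the results of the same comparison known. Their differences between groups are therefore given as a description and support nothing on their own.

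Bulk poly(A) RNA sequencing compared 4 SNI libraries with 4 Sham libraries, all from brain tissue of C57 mice. SNI is read here as spared nerve injury, an operation used in rodents to model chronic neuropathic pain, Sham as its operated control, and PrL as the prelimbic part of the medial prefrontal cortex. The labels say nothing of the time after surgery, the age or sex of the mice, or pooling of animals. Whether the libraries stem from different mice is not stated either, so errors and p-values below measure the spread between libraries, which may be technical.

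Inhibitory interneurons of the cortex are commonly classed by the peptide or calcium-binding protein they make. Somatostatin cells target dendrites of pyramidal neurons, parvalbumin cells target their cell bodies and axon initial segments, and VIP cells mainly inhibit other interneurons. Cortistatin is a close relative of somatostatin that binds the same family of inhibitory G protein-coupled receptors, and it is found in subsets of somatostatin and parvalbumin interneurons. Neuropeptide Y marks neurogliaform cells and part of the somatostatin class. Cholecystokinin is made by a class of basket cells and, at the RNA level, also by many pyramidal neurons. A peptide is cut from a precursor, packed in dense-core vesicles and released on strong firing, and it then acts on receptors of neighbouring cells.

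The kinship of cortistatin and somatostatin can be read in the stretch that codes for the hormone ring, between the pair of cysteine codons that close it. The sequences come from the GENCODE M21 transcripts, and their positions are in GRCm38, both on the minus strand, at chr4:149125270-149125305 for Cort and chr16:23889732-23889767 for Sst. Capitals mark bases shared at the same position.
Cort: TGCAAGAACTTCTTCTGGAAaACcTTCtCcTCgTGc
Sst: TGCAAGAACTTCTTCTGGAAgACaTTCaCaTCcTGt
Of these 36 bases 30 were shared (83.3%), the first 20 of them without a break. Between the whole transcripts, of 677 bases for Cort and 721 bases for Sst, the longest identical stretch was 21 bases long.

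The sequences upstream of these genes are shown because Cort and Sst are related in their hormone and found in overlapping cells. Cort fell in SNI, while Sst overlapped between groups. A link of these sequences to the values was not tested. Somatostatin was among the first genes in which the cyclic AMP response element, TGACGTCA, was described, and its core CGTCA is also bound by factors of that family. The 250 bases before the RefSeq start (GRCm38.p6) are given, at chr4:149126764-149127013 for Cort and chr16:23890845-23891094 for Sst, both on the minus strand. Capitals mark CGTCA on either strand.
Cort: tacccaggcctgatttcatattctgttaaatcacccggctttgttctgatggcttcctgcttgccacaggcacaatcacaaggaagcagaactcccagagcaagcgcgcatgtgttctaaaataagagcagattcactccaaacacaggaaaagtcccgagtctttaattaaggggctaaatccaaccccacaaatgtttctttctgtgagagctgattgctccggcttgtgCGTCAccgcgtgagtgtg
Sst: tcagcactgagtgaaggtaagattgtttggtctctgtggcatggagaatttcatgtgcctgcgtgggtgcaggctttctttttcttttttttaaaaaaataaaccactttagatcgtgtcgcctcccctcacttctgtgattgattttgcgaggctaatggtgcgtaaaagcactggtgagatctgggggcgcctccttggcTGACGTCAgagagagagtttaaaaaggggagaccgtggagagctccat
The upstream sequence of Sst holds the full TGACGTCA, in which CGTCA overlaps its own complement, from -48 to -41 relative to the RefSeq start. This element and part of the 250 bases lie inside Sst as annotated in GENCODE, whose minus-strand start is 23890958. The Cort sequence holds a single CGTCA, from -18 to -14, and no full element.

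Promoters, taken here as 250 bases before to 50 bases after the RefSeq start, were matched for 9 of the 10 genes, all but Sstr1. Searched on both strands, TGACGTCA was in 2 of the 9, those of Sst and Sstr2, and in 1.79% of 32851 mouse promoters of the same length. The core CGTCA was in 6 of the 9, those of Cck, Cort, Sst, Sstr2, Tac1 and Vip, and in 20.81% of all promoters. The sites of Sstr2, Vip and Cck are shown in windows of 30 bases, at chr11:113619258-113619287 on the plus strand, chr10:5639126-5639155 on the plus strand and chr9:121495725-121495754 on the minus strand.
Sstr2: ccaagctgccgTGACGTCAcgggcgggggc
Vip: gggatcactactgTGACGtctttcggggag
Cck: tcctgctggactgCGTCAgcactgggtaaa
The core without the full element was in the promoters of Cort and Cck, which fell in SNI, and equally in those of Tac1 and Vip, which did not pass. Npy1r, which fell, holds no CGTCA in this window. Its window, 66697172 to 66697471, lies mostly inside the gene as annotated in GENCODE, which starts at 66697192. The RefSeq starts of Sst, Tac1 and Sstr2 also differ from their GENCODE gene starts. These matches describe letters in a window, and no binding was measured here.

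The libraries held 14735602 to 19602487 counts. Levels are normalised read counts scaled to a common library total after TMM scaling (CPM). TMM sets 1 factor per library and does not correct for differences in tissue or cell makeup. Fold changes are log2 values of SNI minus Sham from edgeR's quasi-likelihood fit over all 13911 genes, and a gene is said to have passed at a false discovery rate (FDR) of 0.05. Slc17a7, the vesicular glutamate transporter of cortical excitatory neurons, was present in all 8 libraries (1140 to 1860 CPM in SNI and 1730 to 1940 CPM in Sham). Libraries stood apart in markers of other tissue. Summed over the 12 tested genes of 15 listed striatal markers, Tac1 left out, SNI replicates 2 and 4 had 879 and 882 CPM, SNI replicates 1 and 3 had 371 and 443 CPM, and the Sham libraries had 240 to 482 CPM. Over the 4 choroid plexus markers tested, the sums were 6.09 to 8.12 CPM in SNI and 1.90 to 5.05 CPM in Sham, with no overlap, and 2 rose (Ttr and Clic6) while DESeq2 and limma voom each called 3. Of 9 tested markers of thalamus, habenula and septum 3 rose (Prkcd, Zic4 and Dlk1), with sums of 114 to 149 CPM in SNI and 104 to 123 CPM in Sham. Of 10 microglia markers 2 rose (Tmem119 and P2ry12) and 1 fell (Cx3cr1). In Sham replicate 2, Calb2 (calretinin) had 121 CPM, against 19.4 to 38.0 CPM in the other Sham libraries, and the GABA-synthesizing enzyme Gad1 had 467 CPM, against 267 to 294 CPM. Cx3cr1, the fractalkine receptor of microglia, had 1.54 to 2.23 CPM in SNI and 44.8 to 55.3 CPM in Sham. The labels give both groups the same C57 genotype. Calb2 and Cx3cr1 were picked after their values were seen, and the part of these differences in the results below was not tested.

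Among the 10 genes, 3 fell in SNI and 0 rose: Cort, Cck and Npy1r. Over all genes tested 5.02% passed in either direction, 2.87% lower and 2.15% higher in SNI. Without a correction for testing many genes, 4 of the 10 had p under 0.05, all of them lower, and DESeq2 and limma voom each also called 3. The median log2 fold change of the 10 was -0.10, against 0.01 over all genes tested, with 6 below 0 and 4 above. The 3 genes that passed were also the only members whose SNI and Sham libraries did not overlap, which held for 12.7% of all genes tested, 7.02% lower and 5.64% higher in SNI. The choice of the genes used these values, so nothing is read from the counts.

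**Figure D1:**
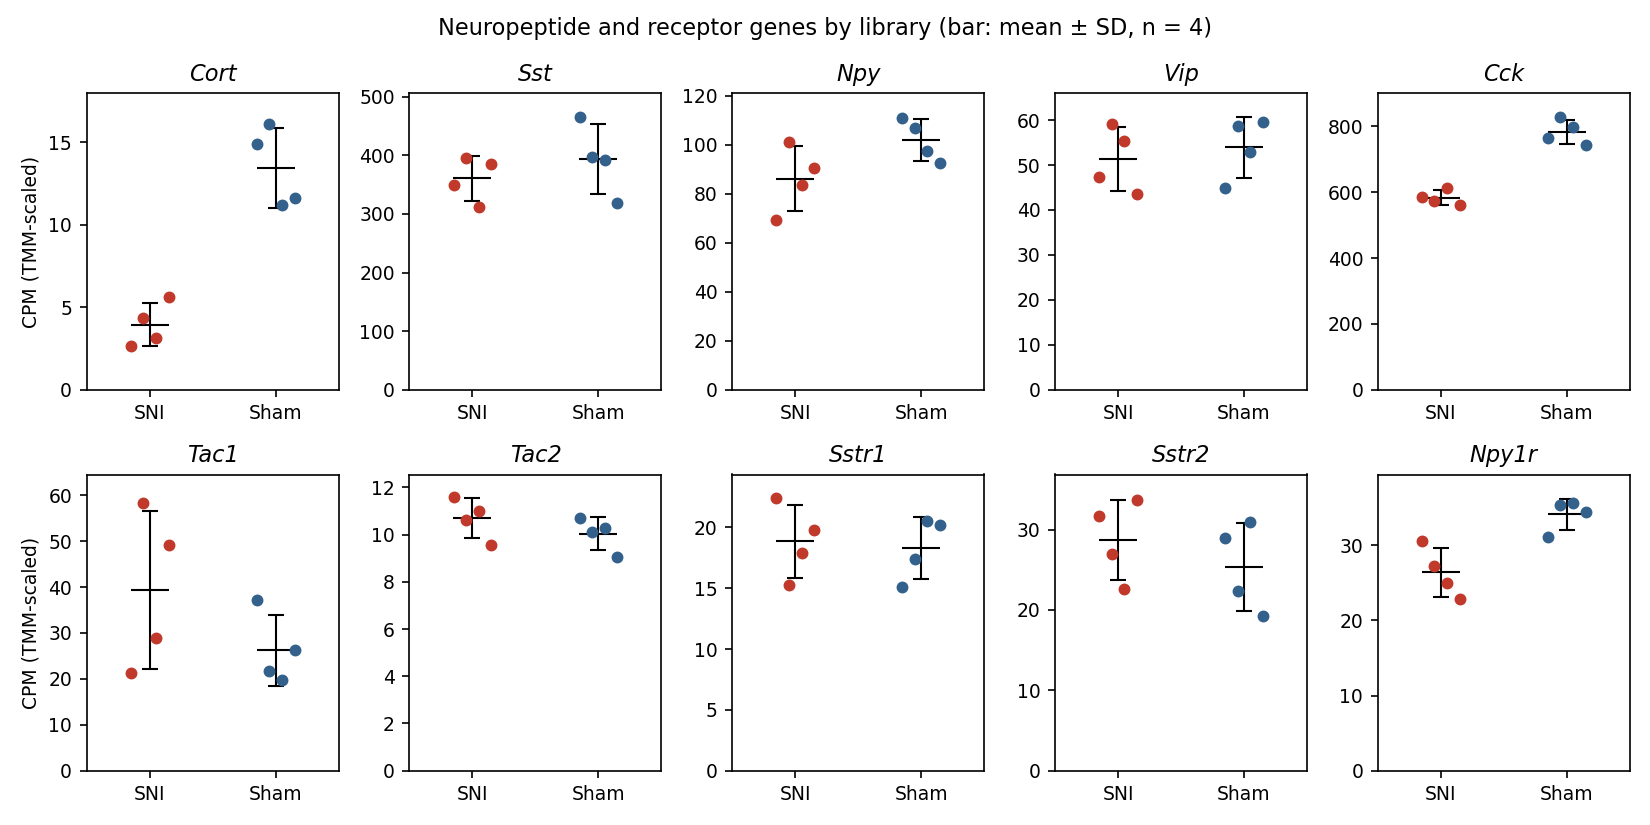
CPM of the 10 genes in each library, SNI on the left and Sham on the right of each panel, with points for libraries and bars for the mean ± SD (n = 4). The groups separate for Cort (2.66 to 5.60 CPM in SNI, 11.2 to 16.1 CPM in Sham), Cck and Npy1r and overlap for the other 7 genes.

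Cort encodes the cortistatin precursor and lies on chromosome 4 from 149125034 to 149126763 (GRCm38, GENCODE M21). Its deposited counts were 43, 88, 47 and 93 in SNI replicates 1 to 4, and 220, 243, 177 and 203 in Sham replicates 1 to 4. Scaled, these were 2.66, 4.36, 3.13 and 5.60 CPM in SNI and 14.9, 16.1, 11.2 and 11.6 CPM in Sham. The highest SNI library was below the lowest Sham library. Means were 3.94 ± 1.32 CPM in SNI and 13.5 ± 2.44 CPM in Sham (SD, n = 4 libraries each). The fitted log2 fold change was -1.76 ± 0.210 (SE). The level in SNI was 3.40-fold lower, and only 15 of the 13911 genes had a lower log2 fold change, Cort being number 16 from the bottom.

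Counting error alone gave exact Poisson 95% intervals of 31.1 to 57.9 reads for the lowest SNI count and 152 to 205 reads for the lowest Sham count of Cort. The highest SNI count, 93, had an interval of 75.1 to 114. Within groups, the coefficient of variation of Cort was 33.5% in SNI and 18.1% in Sham. SNI replicates 2 and 4, the libraries high in striatal markers, had the higher SNI values of Cort, and without both the log2 fold change was -2.21. Without Sham replicate 2 it was -1.67. In bulk tissue, fewer cells that make a peptide and less of its RNA per cell cannot be told apart.

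The gene next to Cort gives a local comparison. Cenps, a centromere protein gene, lies upstream of Cort on the same strand, with 357 bases between the annotated ends, and Dffa, a DNA fragmentation factor subunit, lies 4386 bases away on the other side. Cenps had 3.47, 5.05, 4.86 and 3.86 CPM in SNI and 4.55, 3.52, 3.48 and 3.44 CPM in Sham. Its log2 fold change was 0.21 ± 0.204 (SE, edgeR adjusted p = 0.601). Dffa averaged 43.1 ± 3.55 CPM in SNI and 43.6 ± 2.77 CPM in Sham (SD, n = 4 libraries each, log2 fold change -0.01). Neither passed, and both groups overlapped for both genes. The sources used here do not say whether reads were counted by strand.

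Set against other genes of the same library, Cort was lower in every SNI library than in any Sham library. These ratios use the deposited counts and need no scaling. Cort was chosen by its fall, and Sst, Npy, Vip and Cenps did not pass. The ratios therefore restate that fall and add no support to it. How often other pairs of genes separate in this way was not computed. Per 100 counts of Sst, Cort had 0.762, 1.10, 1.00 and 1.45 counts in SNI and 3.21, 4.06, 2.85 and 3.65 counts in Sham. Per 100 counts of Npy, it had 4.52 ± 1.14 counts in SNI and 13.2 ± 1.53 counts in Sham (SD, n = 4 libraries each). Per 100 counts of its neighbour Cenps, it had 93.2 ± 35.9 counts in SNI and 362 ± 64.9 counts in Sham. Npy and Cck, each set against Sst, overlapped between groups. Npy per 100 counts of Sst was 23.9 ± 3.04 in SNI and 26.1 ± 2.32 in Sham. Cck per 100 counts of Sst was 164 ± 24.4 in SNI and 202 ± 28.5 in Sham. Few pairs of genes were taken, and Cck in CPM did not overlap, so separation is not particular to Cort.

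**Figure D2:**
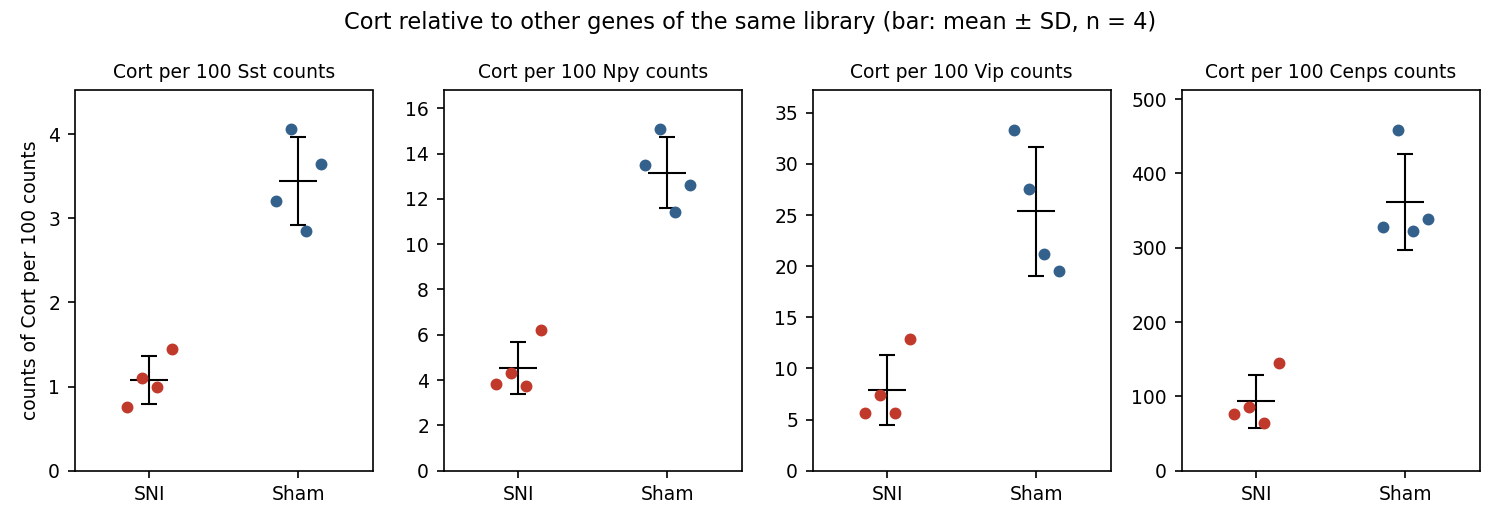
Counts of Cort per 100 counts of Sst, Npy, Vip and Cenps in each library, SNI left and Sham right, with bars for the mean ± SD (n = 4). No SNI library reached the lowest Sham library in any panel; per 100 Sst counts the highest SNI value was 1.45 and the lowest Sham value 2.85.

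Sst, the somatostatin precursor and the defining gene of its interneuron class, lies on chromosome 16 from 23889573 to 23890958. It had 350, 395, 312 and 386 CPM in SNI and 465, 397, 393 and 319 CPM in Sham. The groups overlapped, and the lowest library of all was SNI replicate 3. The log2 fold change was -0.13 ± 0.108 (SE) and did not pass. Other genes of the somatostatin class were then counted. Of 20 tested, 0 passed in edgeR, 3 had an unadjusted p under 0.05 and all of those were higher, and DESeq2 and limma voom each called 1, Unc13c. The list's median log2 fold change was 0.13, and its summed level was 865 to 896 CPM in SNI and 831 to 894 CPM in Sham. Lhx6, the transcription factor of interneurons from the medial ganglionic eminence, had 22.2 ± 2.29 CPM in SNI and 20.3 ± 1.65 CPM in Sham (SD, n = 4 libraries each). Unc13c, a vesicle priming factor, had a log2 fold change of 0.62 (edgeR adjusted p = 0.0728), and Nr2f2, a nuclear receptor, 0.39 (0.228).

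Npy, the neuropeptide Y precursor, lies on chromosome 6 from 49822710 to 49829507. It had 69.5, 101, 83.7 and 90.5 CPM in SNI and 111, 107, 97.7 and 92.5 CPM in Sham. Of the SNI libraries only replicate 2 reached the Sham range. The log2 fold change was -0.24 ± 0.103 (SE) and did not pass, although it passed without SNI replicates 2 and 4 (-0.41). Npy and Npy1r are the members on either side of the threshold.

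Npy1r, the Y1 receptor through which neuropeptide Y inhibits cortical neurons, lies on chromosome 8 from 66697192 to 66706792. It had 30.5, 27.2, 25.0 and 22.8 CPM in SNI and 31.1, 35.3, 35.6 and 34.4 CPM in Sham. The groups were separate by a narrow gap between SNI replicate 1 and Sham replicate 1. Means were 26.4 ± 3.30 CPM in SNI and 34.1 ± 2.06 CPM in Sham (SD, n = 4 libraries each), with a log2 fold change of -0.37. Its call was lost without each library in turn other than SNI replicate 1, so that it was kept in 1 of 8 such fits, and it was also lost with upper-quartile scaling and with library totals alone. The direction stayed the same, with log2 fold changes of -0.45 to -0.31 in those 8 fits.

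Cck, the cholecystokinin precursor, lies on chromosome 9 from 121489824 to 121495694 and was the most counted of the 10 genes. It had 586, 573, 614 and 561 CPM in SNI and 766, 828, 797 and 744 CPM in Sham. Its libraries varied least, with coefficients of variation of 3.85% in SNI and 4.67% in Sham, and the groups did not overlap. The log2 fold change was -0.43 ± 0.0747 (SE), a 1.34-fold lower level in SNI, and it passed without each library in turn (-0.45 to -0.40). Cckbr, the main brain receptor of cholecystokinin, had 96.0, 71.7, 68.2 and 105 CPM in SNI and 112, 105, 123 and 95.5 CPM in Sham. The groups overlapped, and its log2 fold change of -0.35 missed the threshold (edgeR adjusted p = 0.148).

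Cholecystokinin RNA also comes from excitatory neurons, so their markers are given beside it. The 12 tested of 13 listed cortical excitatory markers summed to 4930 to 6820 CPM in SNI and 6970 to 7730 CPM in Sham. Of these, 3 fell (Emx1, Nrgn and Cux2), 0 rose and 9 did not pass, with 6 at an unadjusted p under 0.05, all lower. DESeq2 called 4 and limma voom 3. Cck also lies 1.42 megabases from Cx3cr1, which spans 119901616 to 120069879 on chromosome 9 and fell in SNI as given above. The part of the excitatory markers or of this neighbourhood in the values of Cck was not tested.

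Vip, the precursor of vasoactive intestinal peptide, lies on chromosome 10 from 5639218 to 5647617. It had 47.4, 59.2, 55.4 and 43.5 CPM in SNI and 44.8, 58.6, 52.8 and 59.6 CPM in Sham. The ranges nearly coincided, and the log2 fold change was -0.07 ± 0.110 (SE). Genes that mark interneurons of the caudal ganglionic eminence, to which VIP cells belong, moved both ways. Of 20 tested, 2 fell and 1 rose, with a median log2 fold change of 0.02 and a summed level of 804 to 879 CPM in SNI and 889 to 1060 CPM in Sham. Without Lamp5, left out after the values were seen, the sums overlapped, at 692 to 742 CPM in SNI and 703 to 871 CPM in Sham. Lamp5, a membrane protein of neurogliaform cells that upper-layer pyramidal neurons also make, had 123 ± 10.9 CPM in SNI and 215 ± 35.3 CPM in Sham (SD, n = 4 libraries each; edgeR log2 fold change -0.80, adjusted p = 0.00130). Crh, the corticotropin-releasing hormone precursor found in part of the VIP cells, had 5.66 ± 0.493 CPM in SNI and 10.6 ± 1.62 CPM in Sham (log2 fold change -0.90, edgeR adjusted p = 0.00434). Sncg, gamma-synuclein, a marker of cholecystokinin basket cells, had 4.03 ± 0.629 CPM in SNI and 1.95 ± 0.337 CPM in Sham (log2 fold change 1.05, edgeR adjusted p = 0.0163). Its call was lost without SNI replicate 2. Sncg and Cck thus differed in direction.

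Tac1, which encodes the precursor of substance P and neurokinin A, lies on chromosome 6 from 7554879 to 7565834. In cortex it is made by part of the parvalbumin cells, and in striatum by medium spiny neurons of the direct pathway. It had 21.3, 58.3, 29.0 and 49.1 CPM in SNI and 37.1, 21.8, 19.8 and 26.3 CPM in Sham. The highest values were those of SNI replicates 2 and 4, and the groups overlapped. The log2 fold change was 0.59 ± 0.370 (SE) and did not pass, and without SNI replicates 2 and 4 it was -0.06. Striatal markers were highest in the same libraries. Penk, the enkephalin precursor, had 62.9, 243, 71.7 and 183 CPM in SNI and 124, 83.1, 54.6 and 76.0 CPM in Sham. Of the 12 striatal markers 1 rose (Serpina9) and 0 fell, 7 had an unadjusted p under 0.05, and their median log2 fold change was 1.03. DESeq2 called 2 and limma voom 0. The part of striatal RNA in the Tac1 and Cort values was not tested. Pvalb, parvalbumin itself, had 51.8 ± 8.40 CPM in SNI and 50.7 ± 6.39 CPM in Sham (SD, n = 4 libraries each).

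**Figure D3:**
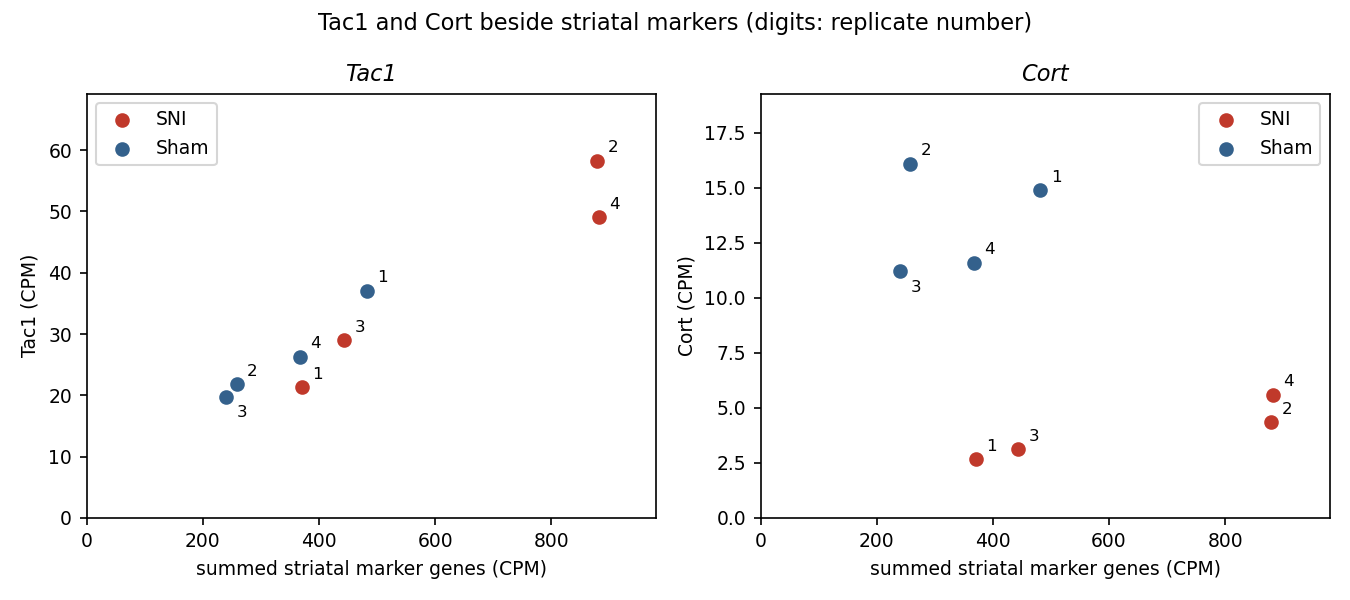
CPM of Tac1 (left) and Cort (right) in each library against the summed CPM of 12 striatal markers, SNI in red and Sham in blue, with digits for replicate numbers. SNI replicates 2 and 4, at 879 and 882 CPM of striatal markers, have the highest Tac1 values (58.3 and 49.1 CPM), and they also have the higher Cort values among the SNI libraries (4.36 and 5.60 CPM, against 2.66 and 3.13 CPM in SNI replicates 1 and 3).

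Genes of the parvalbumin class other than Tac1 included 1 that fell among 16 tested, Mef2c, a transcription factor that excitatory neurons also make. It had 637 ± 46.2 CPM in SNI and 840 ± 47.4 CPM in Sham (SD, n = 4 libraries each; edgeR log2 fold change -0.40, adjusted p = 0.0121), and its call was lost without Sham replicate 3. Kcnc1, a potassium channel of fast-spiking cells, had a log2 fold change of -0.30 (edgeR adjusted p = 0.0551). For Hapln1, a link protein of perineuronal nets, it was -0.33 (edgeR adjusted p = 0.0839). Neither passed in edgeR, while DESeq2 called Kcnc1 and limma voom called both. Of the 16 genes 6 had an unadjusted p under 0.05, 2 higher and 4 lower. The list's median log2 fold change was -0.08, and its summed level was 1120 to 1220 CPM in SNI and 1350 to 1490 CPM in Sham. Without Mef2c, left out in the same way, the sums overlapped, at 533 to 547 CPM in SNI and 539 to 593 CPM in Sham.

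Tac2, the neurokinin B precursor, lies on chromosome 10 from 127724478 to 127731768. It had 11.6, 10.6, 11.0 and 9.58 CPM in SNI and 10.7, 10.1, 10.3 and 9.06 CPM in Sham. The groups overlapped in part, with a log2 fold change of 0.09 ± 0.125 (SE). Tacr3, the receptor of neurokinin B, was scarce, at 1.11 ± 0.386 CPM in SNI and 0.544 ± 0.132 CPM in Sham (SD, n = 4 libraries each). Its log2 fold change was 1.05, short of the threshold (edgeR adjusted p = 0.126).

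Sstr1 and Sstr2 are receptors that somatostatin and cortistatin share. Sstr1 lies on chromosome 12 from 58211772 to 58214444 and had 22.4, 15.3, 17.9 and 19.8 CPM in SNI and 15.1, 17.4, 20.5 and 20.2 CPM in Sham (log2 fold change 0.04 ± 0.133, SE). Sstr2 lies on chromosome 11 from 113619342 to 113626028 and had 31.7, 27.0, 22.6 and 33.7 CPM in SNI and 28.9, 22.3, 31.0 and 19.3 CPM in Sham (log2 fold change 0.18 ± 0.155, SE). Both overlapped between groups and did not pass. Sstr2 lies inside the span of Slc39a11, a zinc transporter gene on the opposite strand, so its counts are uncertain. Slc39a11 had 17.5 ± 1.08 CPM in SNI and 16.5 ± 1.48 CPM in Sham (SD, n = 4 libraries each).

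Sstr3, the somatostatin receptor of neuronal primary cilia, was the receptor outside the 10 genes that passed. It had 31.4, 26.5, 25.5 and 28.3 CPM in SNI and 38.8, 37.4, 46.3 and 41.6 CPM in Sham. The groups did not overlap, and the log2 fold change was -0.56 ± 0.0964 (SE, edgeR adjusted p = 0.00522). It passed without each library in turn, and not without SNI replicates 2 and 3 together (edgeR adjusted p = 0.0566). Of 16 other receptors listed for these peptides, 11 were in the table and 10 were tested, of which 1 fell and 0 rose. Without adjustment 6 had p under 0.05, 3 in each direction, and DESeq2 and limma voom each called 1. Their median log2 fold change was 0.04. The receptors Npy4r, Npy6r, Cckar, Tacr2 and Ghsr were not analysed here.

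General genes of GABA synthesis and transport gave 0 calls among 13 tested, in edgeR, DESeq2 and limma voom alike, with 1 at an unadjusted p under 0.05, Dlx6. Gad1 had 282 ± 34.4 CPM in SNI and 326 ± 94.9 CPM in Sham, Gad2, the other GABA-synthesizing enzyme, 168 ± 30.9 CPM in SNI and 162 ± 20.1 CPM in Sham, and Slc32a1, the vesicular GABA transporter, 72.1 ± 6.76 CPM in SNI and 78.1 ± 6.93 CPM in Sham (SD, n = 4 libraries each). The median log2 fold change of the 13 was -0.16. The log2 fold change of Gad1, -0.21, became 0.01 without Sham replicate 2. The interneuron lineage factor Dlx2 had a log2 fold change of -0.40 (edgeR adjusted p = 0.300), and Dlx6 had 0.49 (0.210). Neither passed.

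**Figure D4:**
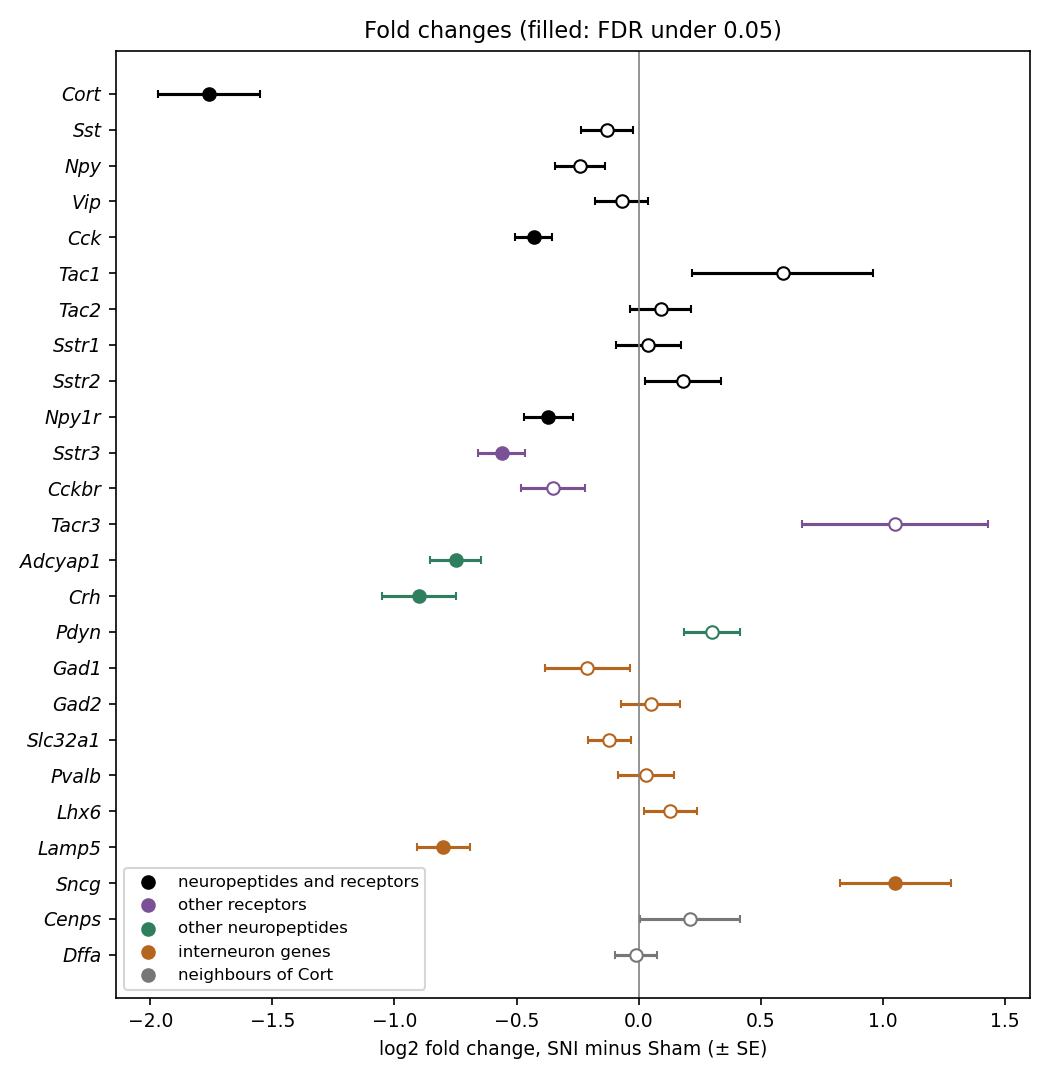
Log2 fold changes of SNI minus Sham with standard errors for the 10 genes and for receptors, other neuropeptides, interneuron genes and neighbours of Cort. Filled circles passed the FDR of 0.05. Cort, at -1.76, lies far to the left of Sst (-0.13) and of its neighbours Cenps (0.21) and Dffa (-0.01).

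Other neuropeptide precursors and the enzymes that mature or break down peptides were compared as lists. Of 12 other precursors tested, 2 fell and 0 rose, with a median log2 fold change of -0.15. These were Crh, given above, and Adcyap1, the precursor of PACAP, with 35.3, 35.0, 24.8 and 34.2 CPM in SNI and 50.6, 54.7, 58.6 and 54.0 CPM in Sham (log2 fold change -0.75, edgeR adjusted p = 0.00145). Pdyn, the prodynorphin gene, had 0.30 (0.144) and did not pass. Of 16 processing and degrading enzymes and chaperones, 2 fell and 1 rose, with a median of -0.13. Pam, the enzyme that amidates the end of peptides such as neuropeptide Y, cholecystokinin and VIP, had 197 ± 7.75 CPM in SNI and 245 ± 22.4 CPM in Sham (SD, n = 4 libraries each; edgeR log2 fold change -0.31, adjusted p = 0.0376). Prep, prolyl endopeptidase, had -0.38 (0.0310). Mme, neprilysin, which degrades somatostatin and substance P among others, had 9.11, 13.6, 7.79 and 9.52 CPM in SNI and 5.97, 5.11, 5.75 and 6.88 CPM in Sham (log2 fold change 0.76, edgeR adjusted p = 0.0255). Each of these 3 lost its call without several libraries in turn: Mme passed in 4 of 8 such fits and Prep and Pam in 3 of 8 each.

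Scaled by length, the genes fell into widely different levels. In CPM per kilobase of annotated exon, Sst averaged 500 ± 52.6 in SNI and 546 ± 83.2 in Sham, Cck 447 ± 17.2 in SNI and 601 ± 28.0 in Sham, and Npy 152 ± 23.2 in SNI and 180 ± 14.7 in Sham (SD, n = 4 libraries each). Sst and Cck, neighbours in this order, overlapped in both groups, and Npy was separate from both. The other 7 genes lay between 5.82 and 15.1 in SNI and between 7.29 and 19.9 in Sham. Cort was number 10 of 10 in SNI, at 5.82 ± 1.95, and number 4 of 10 in Sham, at 19.9 ± 3.60, where its range overlapped that of Vip below it (13.2 to 17.5). The neighbours from number 4 to number 10 overlapped throughout in both groups. With the longest transcript as length, Cck stood above Sst with no overlap in either group, and Cort was number 10 in SNI and number 5 in Sham, below Vip.

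**Figure D5:**
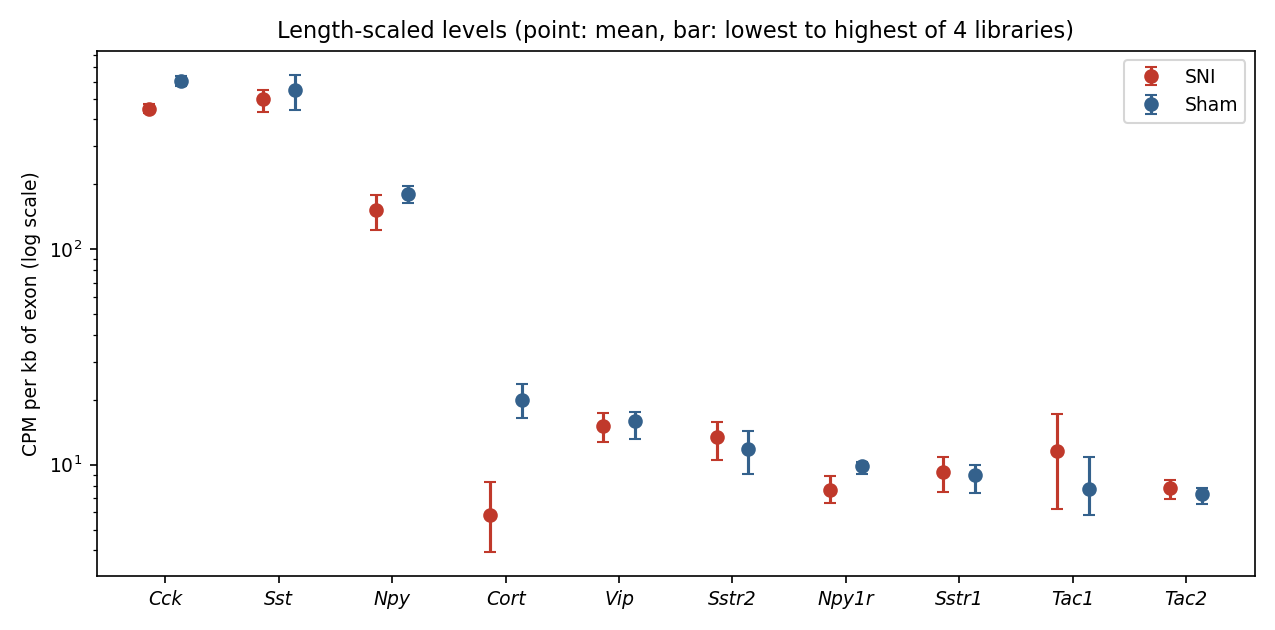
CPM per kilobase of exon of the 10 genes on a log axis, SNI left and Sham right of each pair, with points for means and bars from the lowest to the highest of 4 libraries. Cck, Sst and Npy stand above the rest, and Cort has the lowest mean in SNI (3.94 to 8.28) but is among the higher of the remaining genes in Sham (16.5 to 23.8).

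Genes whose pattern over the 8 libraries was closest to that of Cort were found by the root mean square difference of centred log2 CPM, over 13584 genes with a mean log2 CPM of at least 0. The closest were Wif1 (0.317 log2 units), an inhibitor of Wnt ligands, Colq (0.336), the collagen tail of acetylcholinesterase, Olfr464 (0.371), an olfactory receptor, Tnnc1 (0.383), the slow and cardiac form of troponin C, and Hist3h2a (0.396), a histone H2A gene. All 5 were lower in SNI, with log2 fold changes of -1.37, -2.10, -2.14, -1.21 and -1.05. Wif1 and Tnnc1 each kept their call in only 2 of 8 fits with 1 library left out, the other genes in all 8. Wif1, Colq and Olfr464 were scarce in SNI, with 8 to 17, 9 to 26 and 5 to 19 counts a library. Tnnc1 had 15.8 ± 6.10 CPM in SNI and 36.7 ± 6.15 CPM in Sham (SD, n = 4 libraries each). The measure favours genes with a like difference between groups. Among the other 9 neuropeptide and receptor genes Cck was nearest to Cort, as number 362 (0.760), and Sst was number 2092 (0.872).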

How the data were processed

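RNA of PrL tissue was sequenced in bulk from 4 SNI and 4 Sham samples. According to the labels' protocols, poly(A) RNA was selected and dUTP marked the strand. The authors deposited whole-number counts per gene symbol, the smallest being 1. Per the submitters' processing notes, fastp, HISAT2 and StringTie on GRCm38 were used, while the counting step, annotation and versions are unstated. edgeR 4.0.16 in R 4.3.3 kept 13911 of 14765 genes (filterByExpr), applied TMM and gave robust quasi-likelihood F-tests of the group term, two-sided, with Benjamini-Hochberg adjustment. A standard error is the log2 fold change divided by the square root of F. The biological coefficient of variation was 12.1%. Counting intervals cover counting error only, since reads carry no molecular identifiers. Coordinates and exon lengths came from GENCODE M21 (GRCm38) and upstream sequences from RefSeq (GRCm38.p6).

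The members and lists were chosen with earlier results of these data known. Genes named are the members, the up to 3 smallest p and all calls in each list, the neighbours of Cort and genes overlapping a member, the 5 nearest patterns, and Gad1, Gad2, Slc32a1, Pvalb and Lhx6; 1 gene that this rule names is not reported here. In simulated counts for this comparison with 13829 genes, the fit recovered 52.5% of 80 genes given a log2 change of 0.5, 78.9% of 57 given 1 and 98.4% of 62 given 2, with 12 of 160 calls false. Alternatives were RLE, upper-quartile and library-total scaling, other filters, DESeq2 1.42.0, limma 3.58.1 voom, a replicate block and libraries left out. Within each group no library was a copy of another: chi-square per degree of freedom between same-group pairs was 7.39 to 28.4. Pairs of an SNI and a Sham library were not compared in this way.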

Additional observations from a re-analysis of the deposited data

Results flagged for a closer look

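Each group of 4 libraries was searched for a library whose gap to the nearest other exceeded 0.829 of the whole range, which chance gives in about 1 of 20 groups. Of 102 groups 7 were singled out. In SNI, replicate 3 stood low in Adcyap1 (24.8 CPM, the others 34.2 to 35.3) and replicate 4 high in Slc32a1 (82.1, the others 68.0 to 69.8). In Sham, replicate 2 stood high in Gad1 (467 CPM, the others 267 to 294), Gad2 (192, the others 150 to 155), Hist3h2a (21.2, the others 15.0 to 16.1) and the counts of Cort per 100 counts of Cenps (458, the others 322 to 338), and replicate 1 stood high in Cenps (4.55 CPM, the others 3.44 to 3.52). None of the 10 neuropeptide and receptor genes was singled out by its CPM.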

How the results depend on the processing

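Cort and Cck passed in all 18 alternative fits, with log2 fold changes of -2.21 to -1.62 and -0.45 to -0.38. Npy1r passed in 6 of 18 (highest edgeR adjusted p 0.183, without SNI replicates 2 and 3). Of the 10 members 2 or 3 were called in every alternative, with 3 without SNI replicates 2 and 4, where Npy took the place of Npy1r. The other counts that moved, over the lists without members, were as follows. Without a low-count filter 2 related receptors passed. DESeq2 called 1153 genes, with 1 somatostatin-class and 2 parvalbumin-class genes, and limma voom called 1 and 3 of these. The replicate block gave 1 somatostatin-class gene. Same-numbered libraries did not deviate together (correlations -0.148 to -0.006), so the block marks only a shared number. At an FDR of 0.1, 1279 genes passed, with 1 somatostatin-class and 3 parvalbumin-class genes. Without SNI replicates 2 and 4, 438 genes passed, with 0 peptide processing, 1 somatostatin-class and 2 parvalbumin-class genes. Without SNI replicates 2 and 3, 178 passed, with 0 related receptors and 0 peptide processing genes. Leaving out 1 library at a time gave 258 to 858 genes, 1 to 2 related receptors, 0 to 3 peptide processing genes, 0 to 1 somatostatin-class and 0 to 2 parvalbumin-class genes. Without SNI replicate 3 the genes called were 297, and without Sham replicates 1, 2 and 3 they were 447, 430 and 258. Signs changed for some genes, not all of them with main values near 0. Dffa was 0.01 with upper-quartile scaling, 0.03 with library totals and voom, 0.09 without SNI replicates 2 and 3 and -0.05 to 0.02 with 1 library left out. Pvalb was -0.06 with voom, -0.03 without SNI replicates 2 and 4, -0.16 without 2 and 3, and -0.08 to 0.11 with 1 left out. Tac1, at 0.59 in the main fit, was -0.06 without SNI replicates 2 and 4, the libraries high in striatal markers, and Gad2 was -0.18. Without 2 and 3, Cenps was -0.03 and Gad2 -0.00. With 1 library left out, Sstr1 ran from -0.05 to 0.13, Gad1 from -0.29 to 0.01 and Gad2 from -0.06 to 0.14. Library totals raised the median of all genes to 0.06, and the other scalings to 0.03 at most. The scarcest genes named have few reads a library, so their values carry more counting error. The cause of these changes was not tested.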
